A study of Homo sapiens with 8 samples.

Results

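The 35 genes described here encode the enzymes that make cholesterol and fatty acids, the proteins that switch those enzymes on, and proteins that move, store or export cholesterol. They were chosen by symbol, as genes of these pathways and with earlier results of these data known, out of 23686 genes listed for each library, and 34 of them passed the filter on low counts. The genes were read in 5 sets: 15 sterol synthesis enzymes, 4 genes of SREBP control, 10 genes of the fatty acid arm, 3 genes of sterol traffic and storage, and 3 genes of cholesterol export and LXR response. The missing member was ABCG1, an exporter of cholesterol to high-density lipoprotein, which had 0 counts in all 4 Hs578T libraries and 5, 11, 6 and 9 counts in the MDA-MB-231 libraries. In Hs578T a floor of 3 counts corresponded to 0.226 to 0.255 CPM (counts scaled to library size), so a lower level could not have been detected.

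RNA was sequenced from Hs578T and MDA-MB-231, both established human lines of triple-negative breast cancer, with and without depletion of GPX1, a selenium-containing enzyme that reduces hydrogen peroxide and lipid hydroperoxides. The 4 groups were control Hs578T, Hs578T given siRNA against GPX1 (siGPX1), control MDA-MB-231 and MDA-MB-231 given siGPX1, with 2 libraries in each group. The depleted samples carry a second label that calls their genotype Gpx1-/-, although their titles name an siRNA. The sources used here do not give the kind of control, the number of siRNAs, the time of harvest or whether replicates were separate cultures. The p-values therefore measure the spread between libraries alone, and that spread may be technical.

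Animal cells control lipid synthesis mainly through the SREBP transcription factors, encoded by SREBF1 and SREBF2. Newly made SREBP sits in the endoplasmic reticulum bound to SCAP, and when sterols are scarce SCAP carries it to the Golgi, where proteases free the part that enters the nucleus. When sterols are plentiful, INSIG proteins hold SCAP back, and oxysterols activate LXR receptors, whose targets ABCA1, ABCG1 and MYLIP promote cholesterol export and limit lipoprotein uptake. SREBP-2 acts mostly on sterol genes and SREBP-1 mostly on fatty acid genes. Tumour cells often make much of their own fatty acid from citrate, which ACLY splits to acetyl-CoA.

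Libraries held between 12905808 and 14216365 counts and detected 15584 to 15817 genes. GPX1 itself stood at 84.0 and 84.2 CPM in the Hs578T controls and at 3.57 and 3.42 CPM after depletion, and at 194 and 209 against 7.28 and 6.78 CPM in MDA-MB-231, which left 4.15% and 3.49% of the control level. Both lines are labelled epithelial but differed in identity markers: all 5 mesenchymal markers exceeded 1 TPM (the length-scaled level) in Hs578T and 4 of 5 did in MDA-MB-231, while 3 of 6 and 5 of 6 epithelial markers did. CDH1, the adhesion protein that defines epithelia, was at 0 in both Hs578T controls and reached at most 1.11 TPM in any library. The summed epithelial markers moved with depletion, from 355.9 and 362.4 TPM to 941.1 and 1041 TPM in Hs578T and from 2472 and 2473 to 3725 and 3823 TPM in MDA-MB-231. The mesenchymal sum also moved, from 17040 and 17300 to between 20390 and 22470 TPM in Hs578T and from 2441 and 2496 to between 3124 and 3161 TPM in MDA-MB-231. The leukocyte sum, in which CD14 and CD68 were the markers over 1 TPM, was 99.38 to 101.4 TPM in Hs578T controls and 70.68 to 75.87 TPM after depletion, while in MDA-MB-231 it was 165 to 171.4 TPM in controls and 174.1 to 178.7 TPM after depletion. CD3E, which defines T cells, was at 0 in all libraries. Of other lipid-handling cell types, 4 of 5 adipocyte markers stayed under 1 TPM in Hs578T, where FABP4 supplied nearly all of a sum of 28.77 to 29.92 TPM in controls and 34.75 to 41.41 TPM after depletion. In MDA-MB-231 3 of 4 hepatocyte markers stayed under 1 TPM, and SERPINA1 supplied nearly all of a sum of 126.2 to 127.6 TPM in controls and 98.45 to 107.1 TPM after depletion. ADIPOQ, LEP and TTR, defining genes of those cells, were at 0 in all libraries. Of ESR1, PGR and ERBB2, receptor genes checked for the triple-negative label, 1 of 3 exceeded 1 TPM in both libraries of every group. Their sum was 31.6 to 36.22 TPM in the Hs578T libraries and 39.35 to 45.06 TPM in the MDA-MB-231 libraries. The part of these markers in the results below was not tested.

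After GPX1 depletion more members fell than rose in both lines. The deepest falls were those of the cholesterol carrier STARD4 and of FADS2, ACLY and FASN of the fatty acid arm. In Hs578T 17 of 34 tested members fell and 4 rose, by edgeR's quasi-likelihood test at a Benjamini-Hochberg adjusted p under 0.05 over 14249 genes. Across all tested genes 22.1% were lower and 28.6% higher under the same rule, and 50.7% passed in either direction. That balance over all genes depended on the fit. It turned to 3363 higher and 3457 lower with a filter of 5 CPM, and to 3188 and 3352 with each line fitted alone. It also turned in both fits on TPM and when any MDA-MB-231 library was left out. With the 5 CPM filter 18 members fell and 3 rose in Hs578T, and with each line alone 17 fell and 3 rose. In MDA-MB-231 16 members fell and 3 rose, where 21.9% of all genes were lower and 20.7% higher, with 42.6% in either direction. When any library of that line was left out, fewer members fell, and fewer of all genes fell as well. The median log2 change over all genes was 0.03 to 0.04 in those fits. With a filter of 5 CPM 15 members fell and 7 rose in MDA-MB-231, and over all genes 3652 were higher and 2544 lower. The median log2 change was -0.15 over the members and 0.04 over all genes in Hs578T, and -0.10 against 0 in MDA-MB-231. These are levels relative to all RNA of a culture, in which fewer cells expressing a gene and less of its RNA per cell cannot be told apart. With a further demand of more than 1.5-fold, 5 members fell and 2 rose in Hs578T (9.13% and 8.3% of all genes), while in MDA-MB-231 the counts were 4 and 0 (7.7% and 4.01% of all genes). ACLY, FASN, FADS2 and STARD4 fell by that much in both lines, against 4.86% of all genes. Both depleted libraries lay below both controls for 22 members and above them for 5 in Hs578T, where 31.7% and 40.5% of all genes did. In MDA-MB-231 the corresponding counts were 18 and 8, against 35.8% and 35.7%.

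The lines have separate controls, so the calls can be set side by side. SQLE, LSS, EBP, SREBF1, SREBF2, SCAP, ACLY, AACS, FASN, SCD, FADS1, FADS2, STARD4 and NPC1 fell in both, 14 members in all, against 14.3% of all tested genes. ABCA1 was the 1 member that rose in both, against 14.9% of all genes. None (0) moved in opposite directions, and 9 members passed in neither line: MVK, PMVK, FDPS, FDFT1, CYP51A1, TM7SF2, NSDHL and HSD17B7 of sterol synthesis, and ACSS2.

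**Figure D1:**
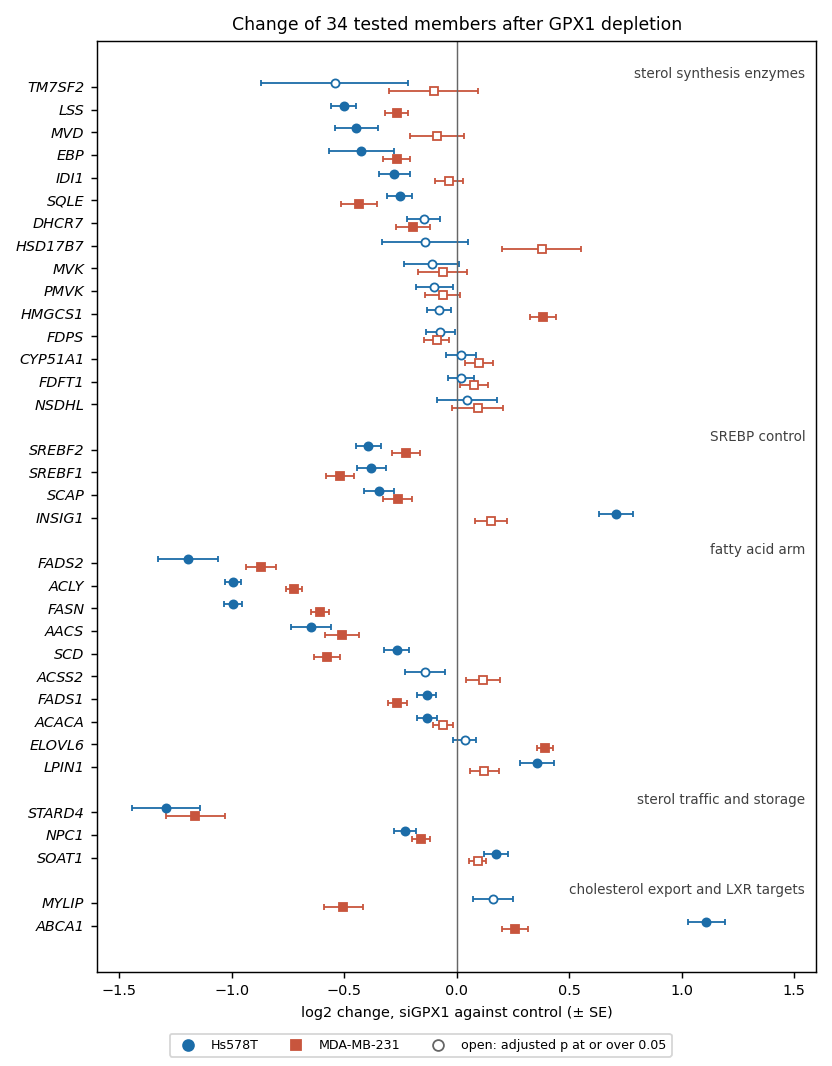
Log2 change after GPX1 depletion (x axis, siGPX1 against control, ± SE) for the 34 tested members, grouped by role, in Hs578T (circles) and MDA-MB-231 (squares), with open symbols where the adjusted p was at or over 0.05. STARD4, FADS2, ACLY and FASN lie farthest to the left in both lines, and ABCA1 lies to the right, at 1.11 (Hs578T) and 0.26 (MDA-MB-231).

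The fatty acid arm held most of the deep falls. In Hs578T 7 of its 10 genes fell (22.1% of all genes), 4 of them by more than 1.5-fold, and 1 rose (28.6%). In MDA-MB-231 6 fell (21.9% of all genes), 3 of them by more than 1.5-fold, and 1 rose (20.7%). The median log2 change of the arm was -0.20 in Hs578T and -0.39 in MDA-MB-231. Its summed level went from 633 and 637.2 TPM to 418 and 401.3 TPM in Hs578T and from 742.5 and 738.8 to 607 and 611.2 TPM in MDA-MB-231, so the depleted libraries lay below the controls in both lines.

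ACLY, which makes cytosolic acetyl-CoA from citrate and so feeds both fatty acid and sterol synthesis, was the most abundant member per length in the controls, at 299.9 and 300.4 TPM in Hs578T. It stood at 537 and 539.9 CPM in Hs578T controls and at 278 and 262 CPM after depletion, and at 409 and 409 against 246 and 249 CPM in MDA-MB-231. The depleted libraries of each line lay far below their controls. The log2 change was -0.99 ± 0.04 (SE) in Hs578T (adjusted p = 5.01e-12 by edgeR's quasi-likelihood test, Benjamini-Hochberg adjusted) and -0.72 ± 0.04 in MDA-MB-231 (adjusted p = 2.73e-10).

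FASN, the multidomain synthase that builds palmitate, stood at 233 and 238 CPM in Hs578T controls and at 120.1 and 116 CPM after depletion. In MDA-MB-231 it stood at 202 and 207 CPM against 137 and 132 CPM. Its fall was 1.99-fold in Hs578T, the same size as that of ACLY there, and 1.52-fold in MDA-MB-231 (log2 changes -0.99 ± 0.04 and -0.61 ± 0.04 SE, adjusted p = 1.47e-11 and 4.68e-09 by edgeR's quasi-likelihood test). ACACA, the acetyl-CoA carboxylase that supplies FASN with malonyl-CoA, moved little: its log2 change was -0.13 ± 0.04 in Hs578T and -0.06 ± 0.04 in MDA-MB-231, where it did not pass (adjusted p = 0.296). The Hs578T call of ACACA was lost without either Hs578T control and without siGPX1 replicate 1, with adjusted p up to 0.1.

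Among the desaturases, FADS2, the delta-6 desaturase of polyunsaturated fatty acids, changed most. It stood at 11.8 and 14.3 CPM in Hs578T controls and 6.21 and 5.21 CPM after depletion, and at 68.8 and 71.4 CPM against 37.6 and 39.1 CPM in MDA-MB-231. These were falls of 2.29-fold and 1.83-fold (log2 -1.20 ± 0.13 and -0.87 ± 0.07 SE, adjusted p = 1.87e-06 and 3.85e-08 by edgeR's quasi-likelihood test). FADS1, the delta-5 desaturase that acts after FADS2, fell by only 0.13 ± 0.04 and 0.26 ± 0.04 on the log2 scale, and its Hs578T call was lost when either control or siGPX1 replicate 2 of that line was left out (highest adjusted p = 0.0908).

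SCD, which makes oleate from stearate, went from 85.3 and 89.5 to 74.3 and 71.0 CPM in Hs578T and from 81.0 and 76.9 to 51.9 and 54.0 CPM in MDA-MB-231. It fell in both lines, by 0.27 ± 0.06 and 0.58 ± 0.06 on the log2 scale, and it was the 1 gene of the arm with a log2 fall past 0.5 in MDA-MB-231 and under 0.5 in Hs578T. AACS, which activates acetoacetate for lipid synthesis, stood at 25.8 and 28.9 CPM in Hs578T controls against 17.9 and 17.01 CPM, and at 36.8 and 38.0 CPM against 24.7 and 27.9 CPM in MDA-MB-231. Its depleted libraries lay below the controls in both lines (log2 -0.65 ± 0.09 and -0.51 ± 0.08 SE, adjusted p = 1.99e-05 and 4.77e-05 by edgeR's quasi-likelihood test).

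The remaining genes of the arm did not follow those falls. ELOVL6, the elongase that extends palmitate, was at 53.9 and 52.1 CPM in Hs578T controls and 53.8 and 54.9 CPM after depletion, and rose from 168 and 167 to 217 and 223 CPM in MDA-MB-231 (log2 0.39 ± 0.04 SE, adjusted p = 3.53e-07 by edgeR's quasi-likelihood test). LPIN1, a phosphatidate phosphatase of triglyceride synthesis and also a nuclear cofactor, rose by 0.36 ± 0.08 in Hs578T and had a log2 change of 0.12 ± 0.07 in MDA-MB-231, which passed only with the 5 CPM filter. ACSS2, the cytosolic enzyme that makes acetyl-CoA from acetate and so bypasses ACLY, passed in neither line (log2 -0.14 ± 0.09 and 0.12 ± 0.08), but was called higher in MDA-MB-231 without its control replicate 2 or siGPX1 replicate 2.

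**Figure D2:**
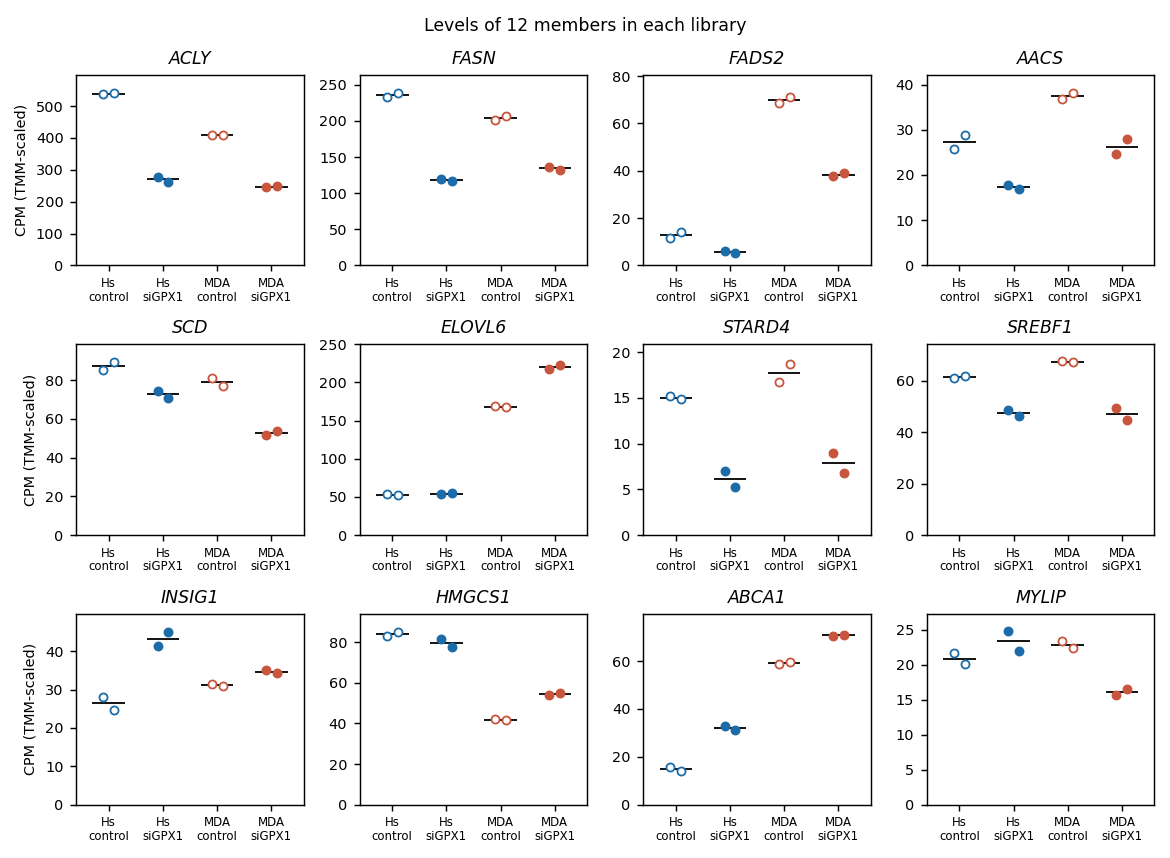
TMM-scaled CPM for 12 members in each of the 8 libraries (circles, open for controls and filled for siGPX1), with a horizontal line at the mean of each group of 2 libraries and the y axis from 0. ACLY, FASN, FADS2 and STARD4 are lower in both depleted libraries of each line, and ABCA1 is higher in both, with the larger distance in Hs578T.

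The enzymes of sterol synthesis changed less. In Hs578T 5 of 15 fell and 0 rose (22.1% and 28.6% of all genes), in MDA-MB-231 4 fell and 1 rose (21.9% and 20.7% of all genes), and in neither line did an enzyme pass with more than 1.5-fold. The median log2 change of the 15 enzymes was -0.14 in Hs578T and -0.06 in MDA-MB-231. That MDA-MB-231 median changed sign to 0.02 without control replicate 2 and to 0.04 without siGPX1 replicate 1. In those fits the median over all genes of that line also moved, from 0 to 0.04 and to 0.03. Summed over the pathway, the enzymes stood at 685 and 707.4 TPM against 604.3 and 609.1 TPM in Hs578T, and at 785.2 and 798 against 746.1 and 757.5 TPM in MDA-MB-231, so the depleted libraries lay slightly below the controls in both.

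At the head of the pathway, HMGCS1, which condenses acetyl-CoA and acetoacetyl-CoA to HMG-CoA, rose in MDA-MB-231 from 42.2 and 41.6 CPM to 54.1 and 55.2 CPM (log2 0.38 ± 0.06 SE, adjusted p = 7.42e-05 by edgeR's quasi-likelihood test). In Hs578T it stood at 83.1 and 85.1 CPM against 81.6 and 77.6 CPM and did not pass. Of the mevalonate enzymes that follow, the kinases MVK and PMVK passed in neither line, with log2 changes between -0.11 and -0.06. MVD, the decarboxylase that yields isopentenyl diphosphate, fell by 0.45 ± 0.10 in Hs578T and IDI1, its isomerase, by 0.28 ± 0.07, while in MDA-MB-231 both had log2 changes of -0.09 or nearer to 0 and did not pass. FDPS and FDFT1, which build farnesyl diphosphate and squalene, had log2 changes between -0.09 and 0.08 and passed in neither line.

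From squalene onwards, SQLE, the oxygen-dependent epoxidase, fell in both lines, from 115 and 118 to 101 and 95.3 CPM in Hs578T and from 24.2 and 22.8 to 17.9 and 16.9 CPM in MDA-MB-231 (log2 -0.25 ± 0.06 and -0.43 ± 0.08). LSS, which folds the epoxide into lanosterol, the first sterol, fell from 79.0 and 83.7 to 59.1 and 55.8 CPM in Hs578T and from 101 and 106 to 87.2 and 84.8 CPM in MDA-MB-231. All depleted libraries of each line lay below its controls for both enzymes. The fall of LSS was 0.50 ± 0.06 on the log2 scale in Hs578T (adjusted p = 2.06e-06 by edgeR's quasi-likelihood test) and 0.27 ± 0.05 in MDA-MB-231, where the call was lost without control replicate 2 (adjusted p = 0.0554).

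The late steps, which trim lanosterol to cholesterol, were mixed. EBP, the sterol isomerase, fell by 0.42 ± 0.15 and 0.27 ± 0.06 on the log2 scale, although DESeq2 called it in neither line (adjusted p = 0.0655 and 0.114). The edgeR calls of EBP were also lost without control replicate 2 or siGPX1 replicate 1 of the line concerned. With each line fitted alone, the Hs578T call of EBP was lost too (adjusted p = 0.0553 by edgeR's quasi-likelihood test). DHCR7, the reductase that finishes the pathway, had log2 changes of -0.15 ± 0.07 and -0.20 ± 0.08. It passed in Hs578T under 5 of 16 alternatives, and its call in MDA-MB-231 (adjusted p = 0.0484 by edgeR's quasi-likelihood test) was lost under 11 of 16 alternatives. CYP51A1 and NSDHL, which remove methyl groups, had log2 changes of 0.02 to 0.10 and passed in neither line. TM7SF2 and HSD17B7 had few counts and wide errors, with Hs578T log2 changes of -0.54 ± 0.33 and -0.14 ± 0.19 and MDA-MB-231 log2 changes of -0.10 ± 0.20 and 0.38 ± 0.17. HSD17B7 passed in MDA-MB-231 with the 5 CPM filter and without siGPX1 replicate 2. FDPS and HSD17B7 have pseudogene copies with which reads may be shared, so their values are less certain.

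In the control machinery, both transcription factor genes fell in both lines. SREBF1 stood at 61.1 and 61.9 CPM against 48.5 and 46.1 CPM in Hs578T and at 67.5 and 67.2 against 49.3 and 44.7 CPM in MDA-MB-231. SREBF2 stood at 114 and 115 CPM against 87.7 and 86.9 CPM, and at 50.3 and 55.9 against 46.6 and 44.2 CPM. The depleted libraries lay below the controls for both genes, narrowly for SREBF2 in MDA-MB-231. The log2 changes were -0.38 ± 0.06 and -0.52 ± 0.06 for SREBF1 (adjusted p = 0.000149 and 5.75e-06) and -0.39 ± 0.06 and -0.22 ± 0.06 for SREBF2 (adjusted p = 2.29e-05 and 0.00889 by edgeR's quasi-likelihood test, Benjamini-Hochberg adjusted).

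SCAP, the escort of both factors, stood at 72.9 and 68.4 CPM in Hs578T controls against 58.2 and 53.1 CPM, and at 72.6 and 79.0 CPM in MDA-MB-231 controls against 63.9 and 62.4 CPM. It fell by 0.34 ± 0.07 and 0.26 ± 0.06 on the log2 scale. Without MDA-MB-231 control replicate 2 the calls of SREBF2 and SCAP in that line were lost (log2 -0.09 and -0.15). They were also lost without either siGPX1 replicate of that line. DESeq2 did not call SREBF2 in MDA-MB-231 either (log2 -0.19, adjusted p = 0.0884).

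INSIG1, the retention protein, went the other way. It stood at 28.2 and 24.7 CPM in Hs578T controls and at 41.4 and 45.2 CPM after depletion, a 1.64-fold rise (log2 0.71 ± 0.08 SE, adjusted p = 1.15e-06 by edgeR's quasi-likelihood test). In MDA-MB-231 it stood at 31.5 and 31.0 CPM against 35.0 and 34.4 CPM and did not pass (log2 0.15 ± 0.07, adjusted p = 0.107), except with DESeq2 size factors and with a filter of 5 CPM. The Hs578T libraries were thus well apart and the MDA-MB-231 libraries close together without overlapping.

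STARD4, a soluble carrier that moves cholesterol between membranes, had the largest fall of all tested members in both lines. It stood at 15.2 and 14.8 CPM in Hs578T controls and 6.97 and 5.29 CPM after depletion, and at 16.7 and 18.7 CPM against 8.97 and 6.78 CPM in MDA-MB-231. These were falls of 2.45-fold and 2.24-fold (log2 -1.29 ± 0.15 and -1.16 ± 0.13 SE, adjusted p = 3.18e-06 and 3.32e-06 by edgeR's quasi-likelihood test). NPC1, the lysosomal membrane protein that releases cholesterol from endocytosed lipoprotein, fell by 0.23 ± 0.05 and 0.16 ± 0.04, with the MDA-MB-231 call lost by DESeq2 and when any library of that line was left out (highest adjusted p = 0.364). SOAT1, which esterifies cholesterol for storage, rose by 0.17 ± 0.05 in Hs578T, a call lost under 11 of 16 alternatives, and had a log2 change of 0.09 ± 0.04 in MDA-MB-231, which passed under 7 of 16 alternatives only.

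Of the export and LXR genes, ABCA1, the pump that loads cholesterol onto apolipoprotein A-I, rose in both lines. It stood at 15.6 and 14.03 CPM in Hs578T controls and 32.9 and 31.1 CPM after depletion, and at 58.8 and 59.6 CPM against 70.7 and 71.1 CPM in MDA-MB-231. The rise was 2.16-fold in Hs578T and 1.197-fold in MDA-MB-231 (log2 1.11 ± 0.08 and 0.26 ± 0.06 SE, adjusted p = 1.65e-08 and 0.00175 by edgeR's quasi-likelihood test). In MDA-MB-231 the call was lost with limma on log2(TPM + 0.1) (adjusted p = 0.0681).

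MYLIP, the ubiquitin ligase that marks lipoprotein receptors for degradation and another LXR target, did not follow ABCA1. It stood at 21.7 and 20.1 CPM in Hs578T controls against 24.8 and 21.9 CPM, which did not pass, and fell from 23.3 and 22.4 to 15.7 and 16.6 CPM in MDA-MB-231 (log2 -0.50 ± 0.09 SE, adjusted p = 0.000224 by edgeR's quasi-likelihood test). With ABCG1 not tested, the export set was ABCA1 and MYLIP, whose median log2 change was 0.64 in Hs578T and -0.12 in MDA-MB-231. A median over 2 genes that differ in direction describes neither.

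**Figure D3:**
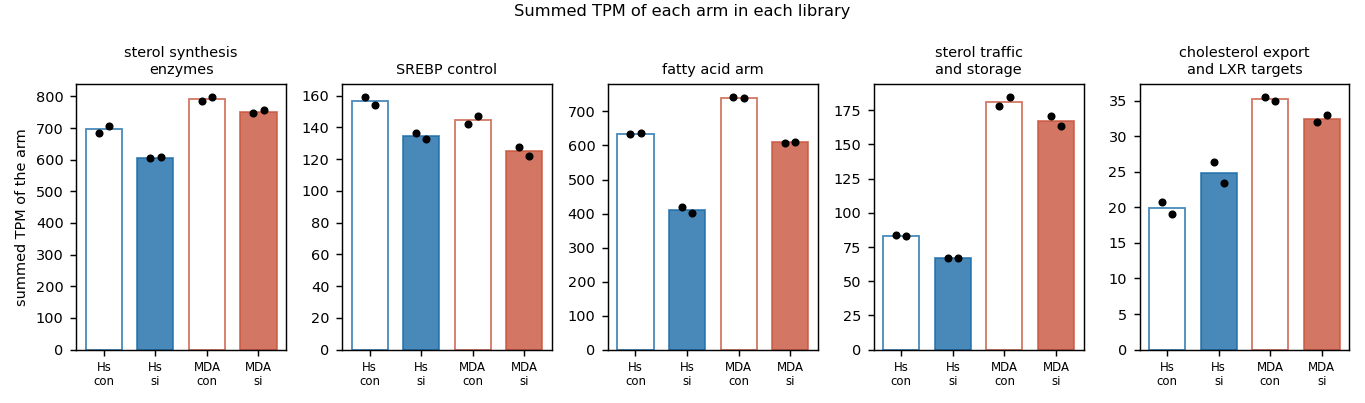
Summed TPM of each gene set in each of the 8 libraries (points), with bars from 0 to the mean of each group of 2 libraries (open for control, filled for siGPX1). The fatty acid arm, in whose sum ACLY weighs heavily, shows the widest gap between control and depleted libraries, from 633 and 637.2 to 418 and 401.3 TPM in Hs578T. The export set is higher after depletion in Hs578T and lower in MDA-MB-231.

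The sets can be set side by side by their counts. Falls past 1.5-fold were made by 4 of 10 fatty acid genes and 0 of 15 sterol enzymes in Hs578T, and by 3 of 10 and 0 of 15 in MDA-MB-231. Over all genes 9.13% and 7.7% fell by that much. ACLY makes the acetyl-CoA used by both pathways and is counted with the fatty acid arm here. The difference between the sets was not tested, since their members were chosen with earlier results of these data known.

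Whether depletion acted alike in both lines was tested by the interaction, the MDA-MB-231 change minus the Hs578T change. It passed for 9 of 34 members, 5 higher and 4 lower, where 17% of all genes passed, 6.32% higher and 10.7% lower. The balance of directions over all genes, 900 higher and 1528 lower, turned to 1251 and 1000 with DESeq2 size factors and to 1684 and 797 with a filter of 5 CPM. It also turned when any 1 MDA-MB-231 library was left out, to between 1006 and 1108 higher and between 513 and 549 lower. Members were 9 higher and 3 lower with the 5 CPM filter and without MDA-MB-231 control replicate 2. ACLY (0.27 ± 0.05 SE) and FASN (0.39 ± 0.06) had positive values, since both fell in both lines and fell less in MDA-MB-231. ABCA1 (-0.85 ± 0.10) and INSIG1 (-0.56 ± 0.10) had negative values, with the larger rise in Hs578T. HMGCS1 (0.46 ± 0.08) and ELOVL6 (0.35 ± 0.06) were higher in MDA-MB-231 after depletion and did not pass in Hs578T.

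MYLIP had an interaction of -0.66 ± 0.12, with its fall in MDA-MB-231. SCD had -0.31 ± 0.08, the deeper fall being in MDA-MB-231, and LSS 0.24 ± 0.08, the deeper fall being in Hs578T. Both calls were fragile: SCD was lost under 9 and LSS under 6 of 15 alternatives (highest adjusted p = 0.286 and 0.12). STARD4, FADS2, AACS and SREBF1 did not pass the interaction, with values of 0.13 ± 0.21, 0.32 ± 0.15, 0.14 ± 0.12 and -0.14 ± 0.09, which does not show that the lines responded alike.

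The lines also differed before any depletion. Between the controls, 16 members were higher and 11 lower in MDA-MB-231, where 43% of all genes were higher and 38.6% lower. Past 1.5-fold, 9 were higher and 5 lower, against 27.2% and 26.6% of all genes. EBP was 9.09-fold higher in MDA-MB-231 (14.1 ± 1.29 against 142 ± 4.96 TPM, mean ± SD, n = 2), FADS2 5.37-fold, ABCA1 3.996-fold, SOAT1 3.24-fold and ELOVL6 3.17-fold. SQLE was 4.96-fold lower in MDA-MB-231 (95.1 ± 1.44 against 21.0 ± 1.05 TPM), MVD 2.58-fold, SREBF2 2.16-fold and HMGCS1 2.01-fold. These folds are from CPM and the levels from TPM. SREBF1, SCAP, STARD4, MYLIP, MVK, PMVK and HSD17B7 did not differ beyond the test's threshold. Fits on TPM, which moved the median difference of all genes from 0.05 to 0.17 or 0.19, also called SREBF1, SCAP, MYLIP and MVK higher in MDA-MB-231 and no longer called FASN and SCD, which were lower by CPM.

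**Figure D4:**
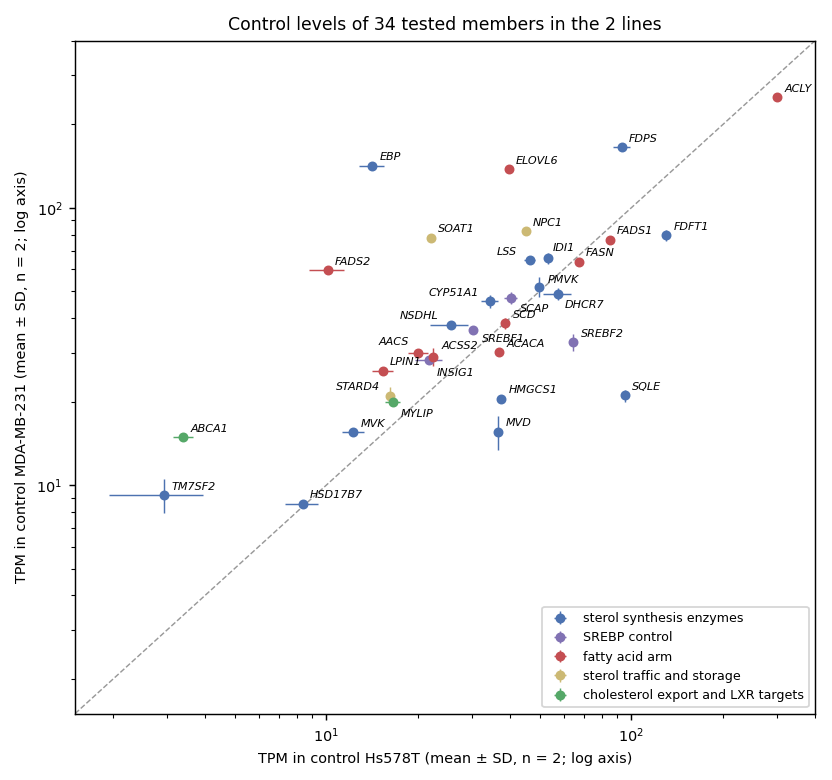
TPM of the 34 tested members in control Hs578T (x axis) and control MDA-MB-231 (y axis), both log axes, as mean ± SD of 2 libraries, coloured by gene set, with a dashed line at equal levels. EBP, ELOVL6, FADS2, SOAT1 and ABCA1 lie above the line, and SQLE, MVD, HMGCS1 and SREBF2 below it.

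Per length, the order of levels in the Hs578T controls began with ACLY, FDFT1 (130 ± 2.03 TPM), SQLE (95.1 ± 1.44 TPM) and FDPS (93.0 ± 5.996 TPM), the last pair within their spread. It ended with HSD17B7 (8.37 ± 1.02 TPM), ABCA1 (3.40 ± 0.262 TPM) and TM7SF2 (2.94 ± 1.004 TPM), of which ABCA1 and TM7SF2 overlapped. In MDA-MB-231 ACLY was followed by FDPS (165 ± 0.0919 TPM), EBP and ELOVL6 (137 ± 1.79 TPM), of which EBP and ELOVL6 did not differ beyond their spread.

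Of 55 further genes of these pathways, 49 were tested; in Hs578T 12 rose and 19 fell (28.6% and 22.1% of all genes), and in MDA-MB-231 10 rose and 14 fell (20.7% and 21.9% of all genes). Their median log2 change was 0 in Hs578T and -0.07 in MDA-MB-231. Of 7 other sterol and isoprenoid enzymes, 1 rose and 2 fell in Hs578T, while 1 rose and 0 fell in MDA-MB-231. C14orf1, a scaffold for sterol demethylation, rose in both lines (log2 0.67 and 0.37). ACAT2, which makes the acetoacetyl-CoA that HMGCS1 uses, fell in Hs578T (log2 -0.25 ± 0.07) and did not pass in MDA-MB-231 (-0.08 ± 0.06).

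Among 8 other SREBP control genes, 5 rose and 2 fell in Hs578T (28.6% and 22.1% of all genes). In MDA-MB-231 2 rose and 2 fell (20.7% and 21.9% of all genes). The pair that fell was FAF2, which takes part in degradation from the endoplasmic reticulum (log2 -0.58 and -0.91), and MBTPS2, the protease that makes the final cut freeing SREBP (log2 -0.43 and -0.28, the MDA-MB-231 call being lost without control replicate 1 of that line, adjusted p = 0.0522). Of 14 tested fatty acid synthesis and elongation genes, 3 rose and 6 fell in Hs578T (28.6% and 22.1% of all genes). In MDA-MB-231 3 rose and 5 fell (20.7% and 21.9% of all genes). MID1IP1, which promotes the assembly of acetyl-CoA carboxylase, rose 2.001-fold and 1.39-fold, while ELOVL5, an elongase of polyunsaturated chains, fell 1.502-fold and 1.32-fold.

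In glycerolipid synthesis 2 of 9 genes rose and 4 fell in Hs578T (28.6% and 22.1% of all genes). In MDA-MB-231 2 rose and 3 fell (20.7% and 21.9% of all genes). AGPAT3 rose (log2 0.53 and 0.38) and AGPAT6 fell (-0.33 and -0.22, with adjusted p = 0.0715 in MDA-MB-231 without its siGPX1 replicate 1). Both are acyltransferases of glycerolipid synthesis. Of 11 tested LXR, export and lysosomal sterol genes, 1 rose and 5 fell in Hs578T (28.6% and 22.1% of all genes). In MDA-MB-231 2 rose and 4 fell (20.7% and 21.9% of all genes). NCEH1, a cholesteryl ester hydrolase, went from 85.8 and 79.0 to 197 and 218 CPM in Hs578T and from 285 and 286 to 467 and 473 CPM in MDA-MB-231, a 2.52-fold and a 1.65-fold rise. LIPA, the lysosomal acid lipase, fell in Hs578T (log2 -0.40) and did not pass in MDA-MB-231 (-0.09).

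Promoter windows from RefSeq (GRCh38.p14), 250 bases before to 50 after the start, were found for 31 of the 35 members, 42 windows in all. They are shown because the members are SREBP or LXR targets or regulators, and the letters searched were CACNCCAC, a core of sterol regulatory elements, CCAAT and GGGCGG, bound by the SREBP partners NF-Y and Sp1, and the E-box CACGTG, on both strands. CACNCCAC was in 6 of 42 member windows and in 5.866% of all 35116 windows. The other motifs were in 24 of 42 against 34.61% for CCAAT, 37 of 42 against 44.95% for GGGCGG and 4 of 42 against 7.256% for CACGTG. By gene, with a match in any of its windows counted, CCAAT was found for 11 of 13 sterol enzymes and 5 of 9 fatty acid genes. It was found for 2 of 4 SREBP control genes, 2 of 3 genes of sterol traffic and storage and 1 of 2 export and LXR genes. The share by gene over all genes was not computed, and 34.61% is by window, so the sets cannot be judged against it. Windows of 30 bases around matches, given 5′ to 3′ on the gene's strand with the match in capitals, are from SREBF2 (chr22:41832962-41832991, plus strand), SCD (chr10:100347108-100347137, plus), INSIG1 (chr7:155297659-155297688, plus), ABCA1 (chr9:104928365-104928394, minus), STARD4 (chr5:111512678-111512707, minus) and ACLY (chr17:41919027-41919056, minus).
SREBF2: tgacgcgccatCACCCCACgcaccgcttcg
SCD: gcagaggccggGTGGTGTGgtgtcggtgtc
INSIG1: gcgggccggcgGTGGCGTGtgcgcacgtca
ABCA1: ccctccaccccCACCCCACccacctccccc
STARD4: tttatcggccaCCAATcagccctccacacg
ACLY: aacgcgtgtggCCAATcgcggggccgttct
The first 4 windows hold the sterol element core, on the opposite strand in SCD and INSIG1, and the last pair holds CCAAT. Of the 6 genes with the core, SREBF2 and SCD fell in both lines, IDI1 and ACACA fell in Hs578T, INSIG1 rose in Hs578T and ABCA1 rose in both, while IDI1, ACACA and INSIG1 did not pass in MDA-MB-231. A match is a description of the letters and does not show that a factor binds there.

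The 3′ UTRs were searched for heptamers that an earlier examination of these same libraries had tied to falls (GGGCATC and GGCATCA) or rises (ACTTCGA and TACTTCG) over all genes, so they are no independent support here. UTRs were taken from GENCODE 29 transcripts. Of 34 tested members, 4 (11.76%) held GGGCATC or GGCATCA, against 13.32% of all tested genes: ACACA, FADS2, LSS and NPC1. All 4 fell in Hs578T and 3 fell in MDA-MB-231, with medians of -0.37 and -0.21. Over all 1898 tested genes with either heptamer 822 fell in Hs578T and 832 in MDA-MB-231, with medians of -0.17 and -0.20. ABCA1 was the 1 member with TACTTCG, against 1.958% of genes with either of that pair. The other 29 members, ACLY, FASN, AACS, SCD, STARD4 and SREBF1 among them, held none of the 4 heptamers, and 13 of the 29 fell in each line, with medians of -0.14 and -0.09. Over all 10989 tested genes whose searched UTRs held none of them 2166 and 2128 fell, with medians of 0.07 and 0.01. The sites are shown with 10 bases on each side and the heptamer in capitals.
FADS2: ctggtcactaGGCATCAcccccgcttt
LSS: tcttttccctGGCATCAtattaggttt
ACACA: cctcctgactGGCATCAggggcttcct
NPC1: ccctctcgcaGGGCATCctgactgaac
ABCA1: agcaactcctTACTTCGgttcctctga
They begin 385, 476, 1268, 11 and 2236 bases after the stop codon, in that order. Their part in the changes was not tested.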

How the data were processed

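RNA from 8 libraries, 2 in each of 4 groups, was analysed from 1 gene table per library. The expected counts deposited by the authors are RSEM 1.2.12 estimates against hg19, and FastQC was used for read quality, per the submitters' processing notes. The TPM values deposited by the authors are the same estimates scaled by effective length, per the file headers. Total RNA was prepared with an RNeasy kit, per the labels' protocols. The aligner and strandedness have no statement in the sources used here, so reads of overlapping genes cannot be told apart. Counts were rounded to whole numbers; 94.71 to 94.88% were whole already, and libraries held 12905808 to 14216365 counts.

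Groups were read from the sample titles and line tags, because the source label gives each sample another line number. Genes passing edgeR's filterByExpr (14249 of 23686) were scaled by TMM factors (0.893 to 1.09) and fitted over all 8 libraries with a mean for each group, leaving 4 residual degrees of freedom. Comparisons used edgeR's quasi-likelihood test, adjusted over all tested genes by Benjamini-Hochberg, with calls at an adjusted p under 0.05. CPM values are TMM-scaled. Each standard error was obtained by dividing the size of the log2 change by the root of its F statistic. Full library values are given for GPX1, SREBF1, SREBF2, SCAP, INSIG1 and members called with an absolute log2 change of at least 0.5 in a line, and up to 2 genes by smallest p per further list are named. Replicates differed by more than counting noise (mean chi-square per gene 1.35 to 4.05). A gene of the further lists is not reported here and was left out of their counts. The members and lists were chosen with earlier results of these data known.

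Settings tried in turn were DESeq2 in place of edgeR, its size factors in edgeR, no filter, at least 5 CPM in 2 libraries, each line alone, replicate number as a block, limma on log2(TPM + 1) and log2(TPM + 0.1), and each library left out. The scripts were tested on simulated data. Tools were edgeR 4.0.16, DESeq2 1.42.0 and limma 3.58.1 in R 4.3.3, and pandas 2.3.3 and matplotlib 3.10.9 in Python 3.11.15.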

Additional observations from a re-analysis of the deposited data

Results flagged for a closer look

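The depletion effect differed between the lines for 9 members by the test of the difference itself (MDA-MB-231 log2 change minus Hs578T log2 change, by edgeR's quasi-likelihood test, Benjamini-Hochberg adjusted). The values were 0.463 for HMGCS1, 0.236 for LSS, 0.271 for ACLY, 0.386 for FASN and 0.355 for ELOVL6, and -0.558 for INSIG1, -0.311 for SCD, -0.850 for ABCA1 and -0.664 for MYLIP. Under all 15 alternatives with a value, HMGCS1, INSIG1, ACLY, FASN, ELOVL6, ABCA1 and MYLIP passed, while LSS was lost under 6 of them and SCD under 9.

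Over the 49 tested further pathway genes, 5 were higher and 3 lower in the interaction (6.32% and 10.7% of all genes). Among those named above, it differed for 5. ELOVL5 (0.184) fell less in MDA-MB-231, and LIPA (0.310) fell in Hs578T and did not pass in MDA-MB-231. FAF2 (-0.329) fell more in MDA-MB-231. MID1IP1 (-0.522) and NCEH1 (-0.614) rose more in Hs578T. Of these, FAF2 was lost under 5 of 15 alternatives (highest adjusted p = 0.137) and ELOVL5 without Hs578T control replicate 1 (adjusted p = 0.0964).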

How the results depend on the processing

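Of the calls on members, 17 of 21 in Hs578T, 12 of 19 in MDA-MB-231, 7 of 9 in the interaction and 21 of 27 between the controls passed under every alternative, and 0 called members changed direction. ACLY, FASN, AACS, SCD, FADS2, STARD4, SQLE and SREBF1 kept their falls in both lines. Calls lost somewhere were EBP, ACACA, FADS1 and SOAT1 in Hs578T and LSS, EBP, DHCR7, SREBF2, SCAP, NPC1 and ABCA1 in MDA-MB-231, LSS and SCD in the interaction, and IDI1, NSDHL, INSIG1, ACSS2, FASN and SCD between the controls. Calls gained somewhere were DHCR7 in Hs578T (under 5 of 16), SOAT1 (7 of 16), HSD17B7, INSIG1, ACSS2 and LPIN1 in MDA-MB-231, IDI1 (7 of 15), MVD, SREBF2, ACSS2 and ACACA in the interaction, and MVK, SREBF1, SCAP, STARD4 and MYLIP between the controls. The cause of these and the following shifts was not tested.

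The median log2 change of the Hs578T fatty acid arm was -0.225 with DESeq2 size factors and with DESeq2, -0.255 with at least 5 CPM and with each line alone, -0.248 with log2(TPM + 1) and -0.256 with log2(TPM + 0.1). That of the Hs578T sterol enzymes was -0.194 with at least 5 CPM and with each line alone and -0.190 with log2(TPM + 0.1), and that of the Hs578T export set 0.489 with log2(TPM + 1). In MDA-MB-231 the export median was -0.0844 with DESeq2 size factors, -0.0843 with DESeq2 and -0.0691 with at least 5 CPM, where the sterol median was -0.0103 and the fatty acid median -0.334. The MDA-MB-231 median over all genes moved in these fits too, from 0 to 0.0279, 0.0277 and 0.049. In Hs578T it moved from 0.0409 to 0.02 with DESeq2 size factors and with DESeq2. It was 0 there with at least 5 CPM and -0.00367 with each line alone. Members that rose in MDA-MB-231 numbered 5 with DESeq2 size factors and 7 with at least 5 CPM, where 15 fell and 9 were higher and 3 lower in the interaction; with both TPM fits 6 were higher and 3 lower. Over all genes, 1938 fell in MDA-MB-231 with DESeq2 against 3116 (2950 rose), and with at least 5 CPM 3652 rose and 2544 fell.

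The interaction over all genes (900 higher, 1528 lower) had 1000 lower with DESeq2 size factors, 543 with DESeq2, 994 with log2(TPM + 1), 804 with log2(TPM + 0.1), and 1684 higher and 797 lower with at least 5 CPM. The share that was higher moved from 37.1% to 55.6, 57.5, 53.5, 53.6 and 67.9%. TPM moved the median of all genes between the controls from 0.05 to 0.17 and 0.19.

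Leaving out 1 library at a time gave medians of -0.250 to -0.193 (fatty acid arm) and -0.207 to -0.0964 (sterol enzymes) in Hs578T, and of -0.382 to -0.282, -0.058 to 0.0375 and -0.117 to -0.0508 (export) in MDA-MB-231. The sterol median there was 0.0198 without control replicate 2 and 0.0375 without siGPX1 replicate 1. In those fits the MDA-MB-231 median over all genes was 0.0399 and 0.032. Members rose in number from 3 to 6 and fell from 10 to 16 in MDA-MB-231, with the 10 falls and 5 rises without control replicate 2. All genes that fell there ranged from 2033 to 3324. In the interaction, 4 to 9 members were higher, 9 of them without MDA-MB-231 control replicate 2, and 513 to 1573 genes lower.

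Libraries with the same replicate number share only that number: their deviations correlated at -0.0348 in Hs578T and 0.0545 in MDA-MB-231. With the replicate block, 3 members rose and 15 fell in MDA-MB-231, 4 were higher and 4 lower in the interaction, and 15 higher and 10 lower between controls. Over all genes 2920 rose and 3112 fell in MDA-MB-231 under the block. The interaction had 904 higher and 1507 lower, and the controls 5812 higher and 5220 lower. Calls lost under the block were DHCR7 in MDA-MB-231 (adjusted p = 0.0567), LSS in the interaction (0.0665), and IDI1 (0.156) and SCD (0.105) between controls, by edgeR's quasi-likelihood test. With 2 libraries per group, TM7SF2, HSD17B7 and ABCG1, which had few counts, could show only large changes.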
